A study of Homo sapiens with 8 samples.

Results

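8 long non-coding RNAs known from cancer research were followed in CFPAC-1 cells, a long-established line from a human ductal adenocarcinoma of the pancreas. They were C6orf223, UCA1, MALAT1, NEAT1, H19, PVT1, KCNQ1OT1 and GAS5, taken by symbol from the 58870 genes of the count table. C6orf223 was selected on its measured fall in these same libraries, so its values are a description and were not tested. The other 7 were listed by name. 7 of the 8 were among the 14785 genes with enough counts to be tested, and H19 was not. Of the 8 samples, 4 carried an empty vector and 4 overexpressed ADRA2A from a transgene. ADRA2A encodes a Gi-coupled adrenergic receptor for adrenaline and noradrenaline. No drug was given, and all cells grew in IMDM with 10% fetal bovine serum for 72 hours. The labels do not state the promoter of the transgene, whether a clone or a pool of cells was used, or whether the 4 samples of a group were separate cultures. The p-values therefore measure the spread between these samples, which may be technical.

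Long non-coding RNAs are transcripts that are not known to be translated into a protein. Some build or occupy nuclear bodies, some act on neighbouring genes from the place where they are transcribed, and some carry small RNAs in their introns or exons. MALAT1 and NEAT1 are abundant nuclear RNAs, H19 and KCNQ1OT1 come from an imprinted gene cluster, PVT1 lies beside the MYC oncogene, GAS5 hosts small nucleolar RNAs, and UCA1 was first described in bladder cancer. Less is known of C6orf223, whose gene GENCODE 44 names LINC03040 and annotates as a long non-coding RNA.

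The libraries held 14427040 to 17528910 estimated counts. ADRA2A itself had 0 counts in every empty-vector library and 112, 142, 154 and 172 counts in the ADRA2A libraries, so the transgene followed the labels. Levels are given as counts-per-million (CPM), which are counts scaled to the size of each library. A gene was called when its adjusted p-value in edgeR's quasi-likelihood test was under 0.05. By that threshold 6314 of 14785 genes (42.7%) were called, 3195 higher and 3119 lower with the transgene. Among the 1092 tested genes annotated as long non-coding RNA, 115 were higher and 109 lower, or 20.5% in all. Of the 6 listed RNAs that could be tested, C6orf223 left out, 3 were called, which stands beside 42.7% over all genes. MALAT1 and NEAT1 rose, UCA1 fell, and PVT1, KCNQ1OT1 and GAS5 did not pass the test. For MALAT1, NEAT1 and UCA1 no ADRA2A library fell within the range of the empty-vector libraries, as in 39.2% of all genes tested. In bulk RNA, a change in the share of cells that express a gene and a change in the RNA per cell cannot be told apart.

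Among epithelial markers of the duct lineage, keratins stood at high level in the cultures. KRT8, KRT18 and KRT19 had group means of 2372 to 5033 CPM, while CFTR, the chloride channel of duct cells, had only 4 to 20 counts. Of the 9 such markers 8 were tested, 3 were higher and 4 lower with ADRA2A, beside 21.6% and 21.1% over all genes. Their log2 fold changes ran from -0.43 to 0.79. Pancreatic endocrine markers were at 0 and acinar markers summed to at most 0.271 CPM in any library. The fibroblast markers summed to 3.48 to 4.13 CPM with the empty vector and 2.76 to 3.60 CPM with ADRA2A, and the endothelial markers to 2.05 to 2.71 and 2.64 to 3.35 CPM. The immune markers summed to 89.8 to 96.1 CPM and 109.8 to 120.7 CPM, nearly all of it CD68, a lysosomal protein, with CD3E and MS4A1 at 0.

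**Figure D1:**
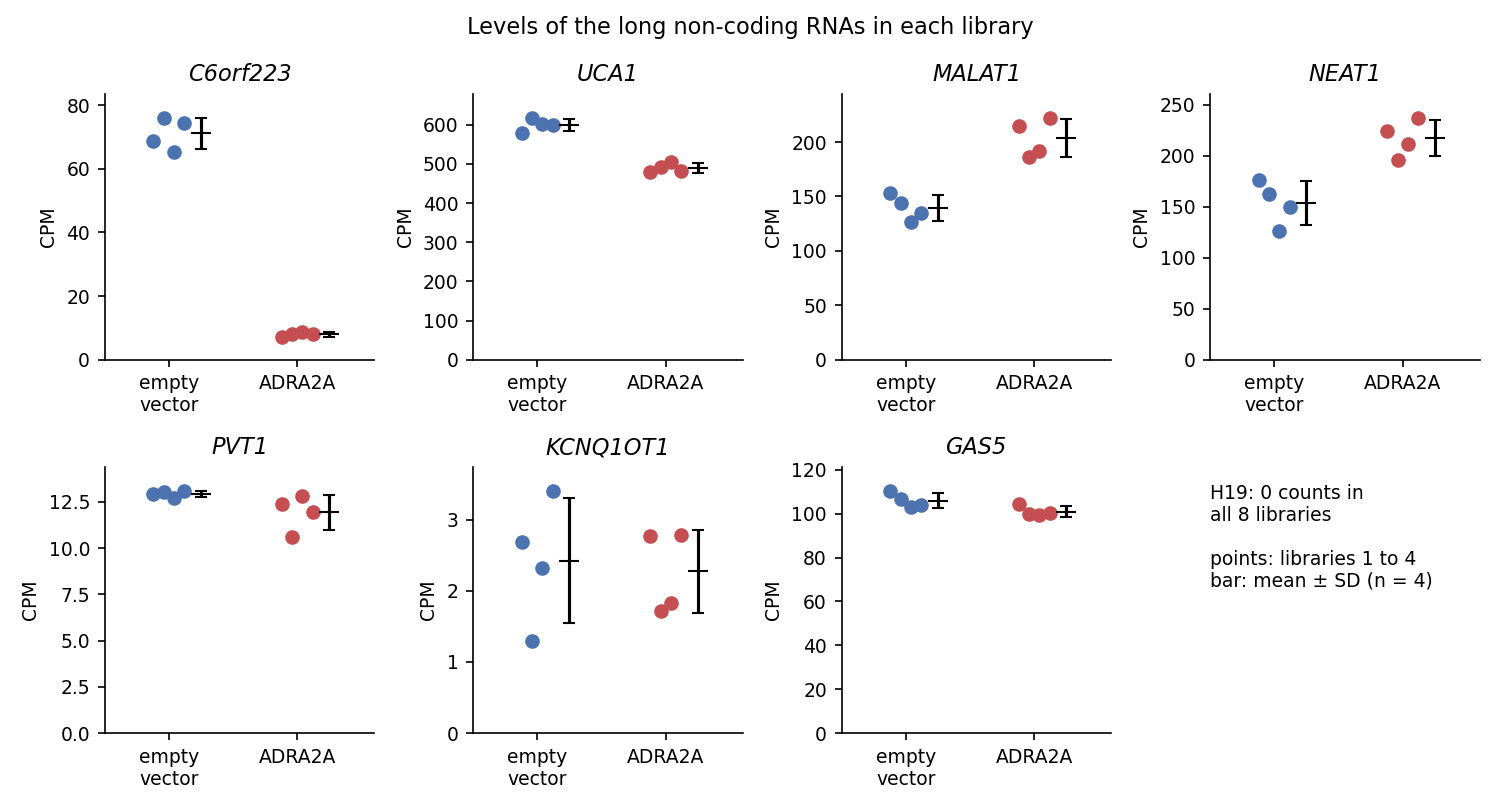
Level of each listed RNA in CPM (vertical axes, from 0) in the 4 empty-vector (blue) and 4 ADRA2A libraries (red), with the mean ± SD of each group as a black bar. The groups do not overlap for C6orf223, which was chosen for its fall, or for UCA1, MALAT1 and NEAT1. They overlap for PVT1, KCNQ1OT1 and GAS5.

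C6orf223 is the RNA that was chosen for its fall. Its gene lies at chr6:44000580-44007612 on the plus strand (GRCh38, GENCODE 44), between VEGFA and MRPL14. It is within the span of AL109615.3, a gene on the minus strand. The empty-vector libraries held 1174, 1122, 1127 and 1138 counts of it, and the ADRA2A libraries 101, 122, 151 and 130. Its level went from 71.1 ± 4.96 CPM (SD, n = 4) to 7.97 ± 0.704 CPM (SD, n = 4), a mean 8.93-fold lower. The fitted log2 difference was -3.15 ± 0.07 (SE). The highest ADRA2A library stood at 8.64 CPM and the lowest empty-vector library at 65.4 CPM. Ranked by CPM among the tested long non-coding RNAs, it was the number 18 with the empty vector and the number 177 with ADRA2A. Of all genes tested, 0.196% had a larger absolute log2 difference.

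The sequence around the start of C6orf223 is shown because this RNA differed most. RefSeq places the start in GRCh38.p14 within chr6:44000335-44000634 on the plus strand, and the capitals mark the 50 bases from the start onward.
C6orf223 (LINC03040) promoter: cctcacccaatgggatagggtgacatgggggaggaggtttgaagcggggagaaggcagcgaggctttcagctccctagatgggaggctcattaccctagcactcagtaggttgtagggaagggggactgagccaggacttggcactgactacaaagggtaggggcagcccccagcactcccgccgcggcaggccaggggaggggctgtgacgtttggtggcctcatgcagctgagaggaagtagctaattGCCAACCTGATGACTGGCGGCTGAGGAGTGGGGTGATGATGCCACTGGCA
Letters of known motifs were searched on both strands of this window and of all 35116 RefSeq promoter windows of the same length. The cyclic AMP response element, TGACGTCA, occurs in 1.85% of all windows and the AP-1 site, TGANTCA, in 7.71%. The TEAD site, GGAATG, occurs in 14.03% and the SMAD site, CAGACA, in 16.9%. A first hypoxia response core, ACGTG, occurs in 21.4%, and a second core, GCGTG, in 36.5%. The E-box, CACGTG, which contains the first core, occurs in 7.26%. The GC box, GGGCGG, occurs in 45.0% and the TATA box, TATAAA, in 11.5%. None of these letters occurs in the C6orf223 window. The window has 60.7% G and C, beside a median of 58.7% over all windows. Promoter entries were found for 4 of the 8 RNAs, C6orf223, MALAT1, H19 and GAS5.

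The genes around C6orf223 were read beside it. As C6orf223 was chosen for its fall, its larger difference follows from that choice and is no result about the locus. VEGFA, the angiogenic growth factor gene 214093 bases away and named after its values were seen, stood at 268, 282, 251 and 270.1 CPM with the empty vector and at 196, 209, 208 and 208 CPM with ADRA2A. Its groups did not overlap, and it fell by 0.38 ± 0.04 on the log2 scale (SE; adjusted p = 1.5e-07 in edgeR). AL109615.3, an antisense transcript (SCIRT in GENCODE 44) that overlaps it, had at most 42 counts and a fitted log2 difference of -0.12 ± 0.25 (SE; adjusted p = 0.73 in edgeR). MRPL14, a mitochondrial ribosomal protein gene 105839 bases away, was lower by a small amount, with a log2 fold change of -0.20 (edgeR adjusted p = 0.0035). Within 1 Mb, 32 other genes were tested, of which 4 were higher and 11 lower, beside 21.6% higher and 21.1% lower over all genes. Their log2 fold changes ran from -0.44 to 0.25, with a median of -0.06. Without use of strand stated, reads of C6orf223 and of its antisense partner cannot be told apart, and the partner's highest count is below every count of C6orf223.

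UCA1 was the most abundant of the tested long non-coding RNAs in both groups, and it fell. Its gene is at chr19:15828206-15836328 on the plus strand, between cytochrome P450 genes of the CYP4F family. The empty-vector libraries stood at 579, 618, 603 and 599 CPM, and the ADRA2A libraries at 480.3, 492, 506 and 481 CPM. Every ADRA2A library was below every empty-vector library. The means were 599.9 ± 15.9 and 489.8 ± 11.8 CPM (SD over 4 libraries). On the log2 scale UCA1 fell by 0.29 ± 0.03 (SE; adjusted p = 3.3e-07 in edgeR), and in CPM the mean fell by 18.4%. Each library held 6948 to 10389 counts of UCA1. Of all tested genes, 30.6% had a larger absolute log2 fold change.

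The genes nearest to UCA1 went the other way. Within 250 kb, 5 genes were tested, and 4 of them were higher with ADRA2A, which stands beside 21.6% of all genes tested. CYP4F3, which oxidises leukotriene B4 and related fatty acids, stood at 9.94, 12.9, 9.17 and 10.3 CPM with the empty vector and at 31.7, 27.7, 24.6 and 30.2 CPM with ADRA2A (log2 fold change 1.43 ± 0.10, edgeR adjusted p = 7.8e-10). CYP4F11, another fatty acid hydroxylase, rose from a mean of 5.24 ± 1.08 CPM to 16.5 ± 1.29 CPM (SD over 4 libraries; log2 fold change 1.67 ± 0.12, edgeR adjusted p = 1.7e-09). CYP4F12 rose from 0.702 ± 0.110 to 2.02 ± 0.391 CPM, and the clone-named gene AC005336.1 from 0.296 ± 0.0862 to 1.30 ± 0.338 CPM, with log2 fold changes of 1.51 and 2.10. Both CYP4F12 and AC005336.1 rest on few counts. TPM4, a tropomyosin gene, was the fifth and fell by 0.12 on the log2 scale. In none of the 5 genes, TPM4 included, did the groups overlap, as in 39.2% of all genes tested. CYP4F genes are close copies of each other, so how reads were divided between them is uncertain. Within 1 Mb of UCA1, 28 genes were tested, 6 were higher and 5 lower, and the median log2 fold change was -0.01. Of 7 tested genes in a list of CYP4F genes and others nearby, 3 were higher and 2 lower. Both counts stand beside 21.6% higher and 21.1% lower over all genes.

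MALAT1 and NEAT1 rose together. MALAT1 is an RNA of nuclear speckles, where splicing factors gather, and NEAT1 is the scaffold of paraspeckles, nuclear bodies that hold RNA-binding proteins. Their genes are 52100 bases apart on chromosome 11, NEAT1 at chr11:65422774-65445540 and MALAT1 at chr11:65497640-65508073, both on the plus strand. MALAT1 stood at 153, 144, 126 and 134 CPM in the empty-vector libraries and at 215, 187, 191 and 222 CPM in the ADRA2A libraries. NEAT1 stood at 176, 163, 126 and 150.2 CPM and at 224, 196, 211 and 237 CPM. For both, every ADRA2A library was above every empty-vector library. Mean MALAT1 was 139 ± 11.6 CPM without and 204 ± 17.4 CPM with the transgene (SD over 4 libraries; log2 fold change 0.55 ± 0.06, edgeR adjusted p = 2.9e-07). Mean NEAT1 was 154 ± 21.4 and 217 ± 17.6 CPM (log2 fold change 0.50 ± 0.07, edgeR adjusted p = 1.6e-05). These are gains of 46.2% and 41.3% on the CPM scale, and 12.8% and 14.8% of all tested genes had larger absolute log2 fold changes. The counts are per gene, so the short and the long form of NEAT1 were not separated.

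The pair also share a feature at the 3′ end, which is shown because both RNAs rose. Mature MALAT1 and the long form of NEAT1 are not known to carry an ordinary poly(A) tail. Their ends are known to be stabilised by a triple helix between uridine-rich stretches and an adenosine-rich tract encoded in the genome. The capitals below mark the 2 runs of letters that are the same in both, 16 and 11 bases long, in transcripts of GENCODE 44. The NEAT1 stretch is chr11:65445484-65445540 on the plus strand (bases 22687 to 22743 of NEAT1-202, its end), and the MALAT1 stretch is chr11:65506065-65506116 on the plus strand (bases 8426 to 8477 of MALAT1-202, which the annotation continues for 1957 bases).
NEAT1 3′ end: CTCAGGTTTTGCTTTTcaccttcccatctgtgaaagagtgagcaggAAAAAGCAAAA
MALAT1 3′ end: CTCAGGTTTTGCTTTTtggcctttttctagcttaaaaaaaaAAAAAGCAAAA
The first run holds a uridine-rich stretch, written with T, and the second run closes the adenosine-rich tract.

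Of the MALAT1 promoter, RefSeq gives 2 windows in GRCh38.p14. The second, chr11:65498795-65499094 on the plus strand, is shown for its TATA box. The capitals mark the 2 matches found in it among the letters searched above, TATAAA at 30 bases before the start and GCGTG, on the opposite strand, at 208 bases before it.
MALAT1 promoter, window 2: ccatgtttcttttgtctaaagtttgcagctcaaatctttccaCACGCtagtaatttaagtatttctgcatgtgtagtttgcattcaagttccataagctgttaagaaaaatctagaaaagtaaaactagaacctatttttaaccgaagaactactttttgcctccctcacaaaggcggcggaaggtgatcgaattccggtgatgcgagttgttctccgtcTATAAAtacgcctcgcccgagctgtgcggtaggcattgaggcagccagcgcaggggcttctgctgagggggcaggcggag
The first window, chr11:65497488-65497787, held 5 matches to GGGCGG and 2 to GCGTG, and has 73.7% G and C, while the second has 46.0%.

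MALAT1 and NEAT1 also varied together within the groups. The ratio of MALAT1 to NEAT1 was 0.912 ± 0.0605 with the empty vector and 0.937 ± 0.0230 with ADRA2A (SD, n = 4 each), and the difference was within the spread of the libraries (exact permutation test, two-sided p = 0.49). After each group's mean log2 CPM was subtracted, Pearson's r over the 8 libraries was 0.93 (exact permutation within groups, p = 0.0017, 0.026 after Benjamini-Hochberg adjustment over 15 pairs of listed RNAs). Spearman's rho was 0.98 (exact permutation p = 0.0035, adjusted 0.052). Without the 2 libraries farthest from the median, r was 0.95. None of the other 14 pairs passed after adjustment. By this correlation NEAT1 ranked number 32 among 10158 genes in likeness to MALAT1, so other genes followed MALAT1 more closely.

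**Figure D2:**
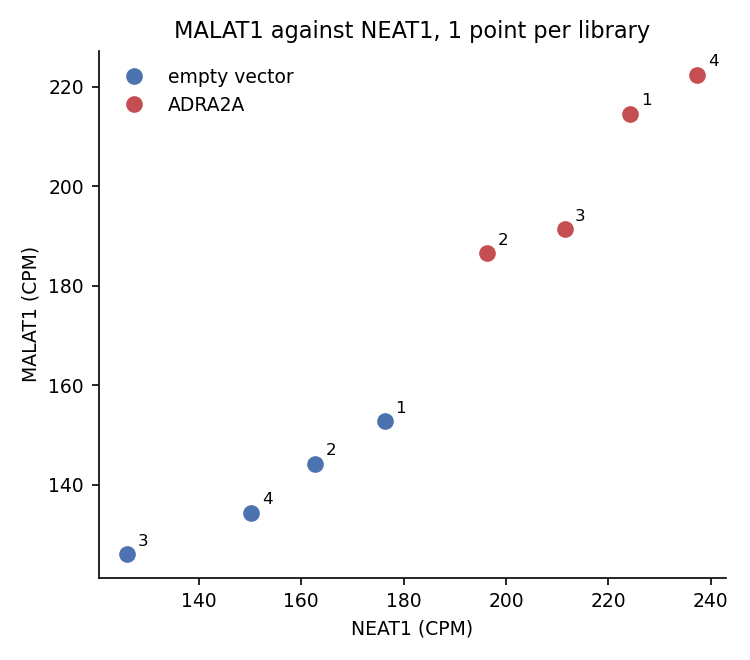
MALAT1 (vertical axis, CPM) against NEAT1 (horizontal axis, CPM), 1 point per library, with the replicate number beside it. The 4 ADRA2A libraries lie above and to the right of the 4 empty-vector libraries, and within each group the library with more NEAT1 also has more MALAT1.

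Between and around them the genes differed. AP000769.1, the gene between NEAT1 and MALAT1, stood at 0.935 and 0.793 CPM (log2 fold change -0.25 ± 0.38, edgeR adjusted p = 0.64). FRMD8, a regulator of shedding proteases 9249 bases from NEAT1, rose from 51.2 ± 3.27 to 59.6 ± 1.04 CPM (log2 fold change 0.22, edgeR adjusted p = 0.0015). LTBP3, a latent TGF-beta binding protein 30486 bases from MALAT1 and named after its values were seen, stood at 153, 155, 118 and 138 CPM and at 215, 192, 201 and 222 CPM (log2 fold change 0.56 ± 0.06, edgeR adjusted p = 7.9e-07). Of 20 genes tested within 250 kb of MALAT1, 4 were higher and 2 lower, NEAT1 included. Of 72 within 1 Mb, 8 were higher and 18 lower, and the median log2 change was -0.05. Among all genes tested, 21.6% were higher and 21.1% lower.

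The proteins of the nuclear bodies that hold these RNAs were read next. Of 22 tested paraspeckle proteins, 2 were higher and 7 lower, and the median log2 change was -0.06 beside 0.00 over all genes. NONO, which binds NEAT1 and is needed for paraspeckles, fell from 694 ± 10.7 to 631 ± 10.6 CPM (log2 fold change -0.14, edgeR adjusted p = 0.00071). Its partner SFPQ stood at 439 ± 10.1 and 432 ± 5.66 CPM and did not pass the test (log2 fold change -0.02, edgeR adjusted p = 0.60). NUDT21, a 3′ end processing factor, and SMARCA4, a chromatin remodeller, fell by 0.19 and 0.20 on the log2 scale. Of 21 tested speckle and serine/arginine-rich splicing proteins, 7 were higher and 5 lower, with a median of 0.00. SRSF11 and the kinase CLK1 rose by 0.22 and 0.25, and SRSF2 and SRSF3 fell by 0.18 and 0.17.

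A mixed list of histone, 7SL and mitochondrial RNAs was read beside MALAT1 and NEAT1. It is not a list of RNAs without tails, since mitochondrial messenger RNAs and H1F0 are known to be polyadenylated. Of 17 tested, 6 were higher and 3 lower, beside 21.6% and 21.1% over all genes, and the median log2 change was 0.04. HIST1H2AC rose from 23.1 ± 1.94 to 33.2 ± 1.62 CPM (log2 fold change 0.52), while the linker histone H1F0 and mitochondrial MT-CO2 fell by 0.31 and 0.27. RN7SK had 1 to 15 counts a library, RMRP had 0, and HIST1H4C at most 2. The summed level of the list was 34334 to 36644 CPM with the empty vector and 34349 to 37219 CPM with ADRA2A. Whether libraries were made by poly(A) selection or by removal of ribosomal RNA is not given in the sources used here, and the part of RNA selection in the rise of MALAT1 and NEAT1 was not tested.

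Of the imprinted RNAs, H19 was not detected and KCNQ1OT1 did not pass the test. H19, an RNA normally expressed from the maternal copy and the host of MIR675, lies at chr11:1995166-2004552 on the minus strand. It had 0 counts in all 8 libraries. With 3 counts as the limit that a count of 0 allows, this is under 0.171 to 0.208 CPM in a single library and under 0.0236 CPM over all 8, for counting error only. MIR675 was also at 0. IGF2, the paternally expressed growth factor gene 124560 bases away, was expressed and fell, from 67.3, 69.6, 64.6 and 60.5 CPM to 22.5, 22.8, 23.6 and 24.6 CPM. The groups were far apart (log2 fold change -1.48 ± 0.06, edgeR adjusted p = 1.1e-13). A second row of the same symbol was at 0, and reads in overlapping IGF2 annotations may be divided between them. MRPL23, a mitochondrial ribosomal protein gene 10644 bases from H19 on its other side, had a log2 fold change of -0.07 (edgeR adjusted p = 0.62).

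KCNQ1OT1 is transcribed antisense from inside KCNQ1 and is known to silence genes of its cluster on the paternal chromosome. It lies at chr11:2597308-2700003 on the minus strand. Its counts were 46, 19, 40 and 52 in the empty-vector libraries and 40, 26, 32 and 44 in the ADRA2A libraries, so the groups overlapped. The levels were 2.42 ± 0.880 and 2.27 ± 0.579 CPM (SD, n = 4 each). Fitted on the log2 scale, the difference was -0.10 ± 0.27 (SE, adjusted p = 0.79 in edgeR). On either side 2 standard errors reach from -0.64 to 0.44, so these libraries do not exclude a change within that range.

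Of 12 tested genes of the surrounding imprinted cluster, 2 were higher and 4 lower, and the median log2 change was -0.08. This count, and that of imprinted genes elsewhere below, stand beside 21.6% higher and 21.1% lower over all genes. KCNQ1, the potassium channel gene that holds KCNQ1OT1, had 5 to 8 counts with the empty vector and 21 to 24 with ADRA2A, from 0.418 ± 0.0590 to 1.42 ± 0.111 CPM (log2 fold change 1.74 ± 0.31, edgeR adjusted p = 0.00015). As the use of strand is not stated, reads of KCNQ1 and KCNQ1OT1 cannot be told apart. SLC22A18, a transporter gene, rose from 13.9 ± 0.964 to 19.7 ± 1.56 CPM (log2 fold change 0.50, edgeR adjusted p = 6.9e-05). CDKN1C, a cell cycle inhibitor that KCNQ1OT1 is known to silence, stood at 2.77 ± 0.678 and 1.81 ± 0.365 CPM with overlapping groups. Its log2 fold change of -0.61 ± 0.24 passed narrowly (edgeR adjusted p = 0.044), and 6 of 14 alternatives kept the call. It was lost with DESeq2 (adjusted p = 0.057), with the replicate block in edgeR (adjusted p = 0.051) and in edgeR without any 1 of empty-vector replicates 1, 2 and 4 and ADRA2A replicates 1, 3 and 4 (adjusted p up to 0.17). Among 10 tested imprinted genes elsewhere, 1 was higher and 5 lower: MEST, a hydrolase-like protein, fell by 0.61, GRB10, an adaptor of insulin signalling, by 0.75 and PEG10, a retrotransposon-derived gene, by 0.31 on the log2 scale.

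PVT1, a long locus beside MYC that hosts several microRNAs, did not pass the test, while MYC fell. PVT1 lies at chr8:127794526-128187101 on the plus strand, 51575 bases from MYC. PVT1 stood at 12.9, 13.0, 12.7 and 13.1 CPM with the empty vector and at 12.4, 10.6, 12.8 and 11.9 CPM with ADRA2A. The groups overlapped, since the highest ADRA2A library was above the lowest empty-vector library. PVT1 differed by -0.11 ± 0.09 on the log2 scale (SE; adjusted p = 0.32 in edgeR), with 2 standard errors reaching from -0.29 to 0.06. MYC, the transcription factor gene, stood at 180.1, 177, 185 and 183 CPM and at 148, 145, 140 and 144 CPM, without overlap. MYC fell by 0.33 ± 0.04 on the log2 scale (SE; adjusted p = 3.3e-07 in edgeR). The ratio of PVT1 to MYC was 0.0714 ± 0.00193 and 0.0828 ± 0.00765 (SD, n = 4 each), a difference that did not pass (exact permutation test, two-sided p = 0.057, 0.076 adjusted over 4 ratios).

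Within 250 kb of PVT1, 2 genes were tested, 0 higher and 2 lower. Within 1 Mb, 5 were tested, 0 higher and 3 lower, with a median log2 change of -0.39. A list of MYC, its partners and genes of the region had 11 tested, 2 higher and 4 lower, with a median of -0.05. These counts stand beside 21.6% higher and 21.1% lower over all genes. ASAP1, a regulator of ARF GTPases farther along the chromosome, fell from 93.2 ± 4.44 to 58.8 ± 2.63 CPM (log2 fold change -0.67, edgeR adjusted p = 9.9e-10). CASC19, another long non-coding RNA on the far side of MYC, fell from 23.2 ± 1.89 to 11.8 ± 0.759 CPM (log2 fold change -0.98, edgeR adjusted p = 1.1e-08). Of 22 MYC target genes of ribosome assembly and metabolism, 0 were higher and 9 lower, with a median of -0.10, beside 21.1% lower over all genes. The nucleolar protein genes NOP56, FBL and NCL fell by 0.51, 0.18 and 0.16, and LDHA, lactate dehydrogenase, by 0.37 on the log2 scale.

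**Figure D3:**
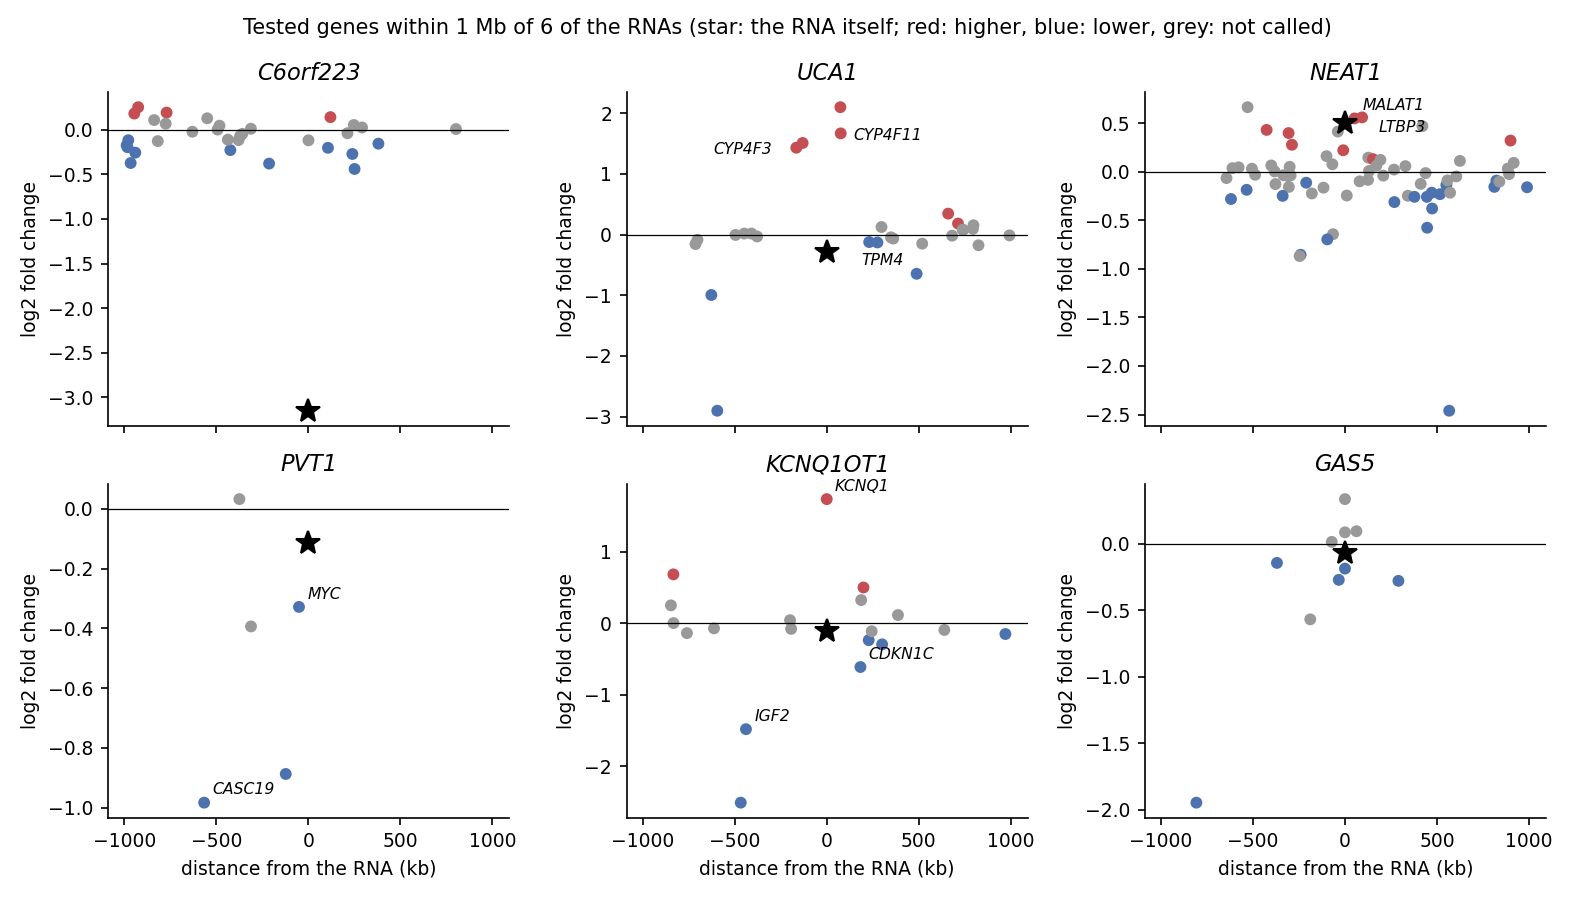
Log2 fold change (vertical axes) of every tested gene within 1 Mb of 6 of the RNAs, against its distance in kb (horizontal axis), with the RNA as a star. C6orf223, chosen for its fall, is at -3.15 and below its 32 neighbours, and the CYP4F genes near UCA1 stand above UCA1.

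GAS5, a host of box C/D small nucleolar RNAs whose spliced transcript is degraded when translated, did not pass the test. It lies at chr1:173858559-173868882 on the minus strand. The empty-vector libraries stood at 110.2, 107, 103 and 104 CPM, and the ADRA2A libraries at 105, 99.7, 99.5 and 100.2 CPM. The groups overlapped through ADRA2A replicate 1. GAS5 differed by -0.07 ± 0.04 on the log2 scale (SE; adjusted p = 0.17 in edgeR), and 2 standard errors reach from -0.15 to 0.01. Its annotation overlaps that of ZBTB37, a zinc finger protein gene with a log2 fold change of 0.08 (edgeR adjusted p = 0.53). Within 1 Mb of GAS5, 10 genes were tested, 0 higher and 5 lower. Of 1491 other genes tested on chromosome 1, 521 were higher and 181 lower, with a median log2 change of 0.10. Over all genes, 21.6% were higher and 21.1% lower. What the position of GAS5 contributes was not tested.

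Many other snoRNA host genes fell. Of 21 tested, 1 was higher and 11 lower, and the median log2 change was -0.26, beside 21.1% lower and a median of 0.00 over all genes. SNHG16 fell from 73.3 ± 3.43 to 52.4 ± 1.45 CPM (log2 fold change -0.48, edgeR adjusted p = 8.3e-08), and SNHG1 from 118 ± 3.21 to 98.2 ± 4.30 CPM (log2 fold change -0.27, edgeR adjusted p = 3.0e-05). SNHG4 and SNHG7 fell by 0.45 and 0.64 on the log2 scale. ZFAS1 was the gene that rose, by 0.15. GAS5 made up 0.127 ± 0.00267 of the summed other hosts with the empty vector, as a ratio, and 0.134 ± 0.00454 with ADRA2A (SD, n = 4 each). The groups did not overlap, and the two-sided exact permutation p of 0.029 is the smallest that 4 against 4 libraries can give (0.057 adjusted over 4 ratios). Without ADRA2A replicate 1, where the ratio was 0.140, the difference between the group means was 0.00479.

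**Figure D4:**
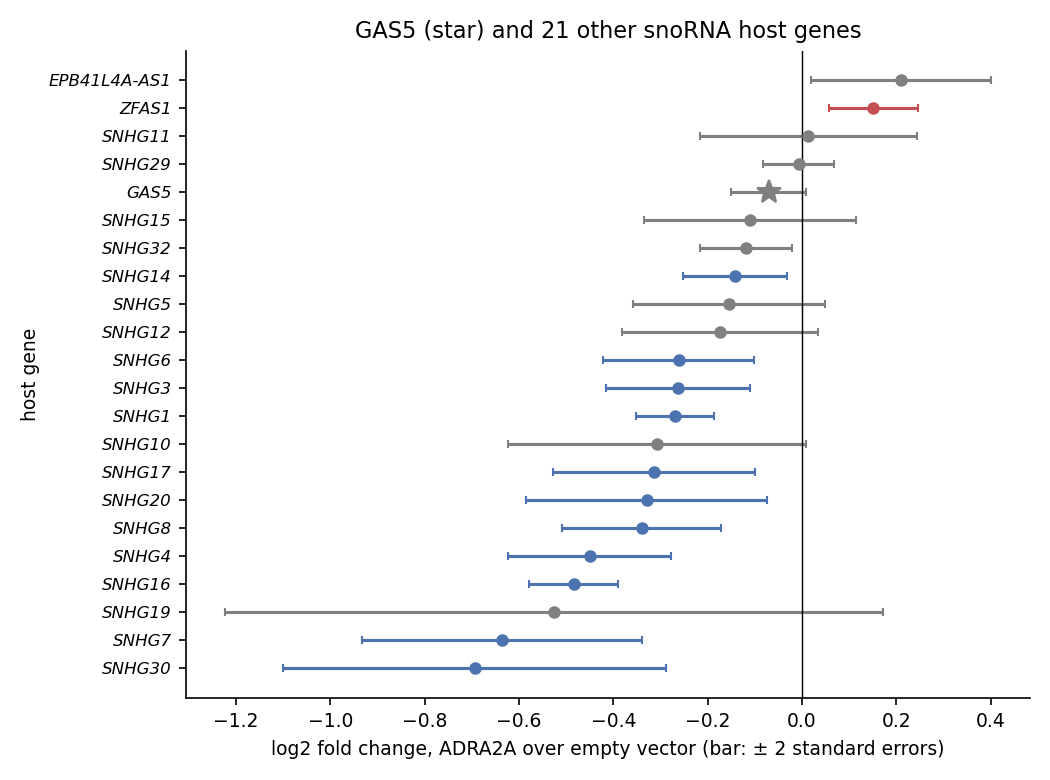
Log2 fold change (horizontal axis) of GAS5 (star) and 21 other snoRNA host genes, each with 2 standard errors, where blue genes fell, red genes rose and grey genes did not pass. GAS5 at -0.07 stands above most of the host genes, whose median is -0.26.

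Genes linked to the decay and the known activity of GAS5 moved both ways, as 21.6% of all genes were higher and 21.1% lower. Of 14 nonsense-mediated decay factors, which degrade GAS5, 3 were higher and 2 lower, with a median of -0.01. EIF4A3 fell by 0.22, and RBM8A and SMG8 rose by 0.15 and 0.20 on the log2 scale. GAS5 can bind the glucocorticoid receptor as a decoy, and of 11 tested genes of the receptor and its targets 4 were higher and 3 lower, with a median of 0.06. TSC22D3 and DUSP1 rose by 0.31 and 0.63, and ERRFI1 fell by 0.29.

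Set side by side, the 8 RNAs spanned a wide range of levels. Per kilobase of annotated exon, the empty-vector levels were 144 CPM for UCA1, 21.5 for GAS5, 13.4 for MALAT1, 12.8 for C6orf223, 6.76 for NEAT1, 0.508 for PVT1 and 0.0262 for KCNQ1OT1, in CPM per kb. MALAT1 and C6orf223 were neighbours in this order and closer than their spread (SD 1.11 and 0.890 CPM per kb). With the longest transcript as the length, UCA1 was at 223.2, GAS5 at 33.7 and PVT1 at 5.28 CPM per kb, so the level of PVT1 depends on which exons are counted. The 8 RNAs held 12.6% to 13.4% of the counts of all genes annotated as long non-coding RNA, tested or not, in every library. The ratio of UCA1 to MALAT1 in CPM was 4.33 ± 0.413 with the empty vector and 2.42 ± 0.254 with ADRA2A (SD, n = 4 each; exact permutation test, two-sided p = 0.029, 0.057 adjusted over 4 ratios). As UCA1 fell and MALAT1 rose, each without overlap, this p was fixed in advance and adds nothing to the 2 separate results.

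**Figure D5:**
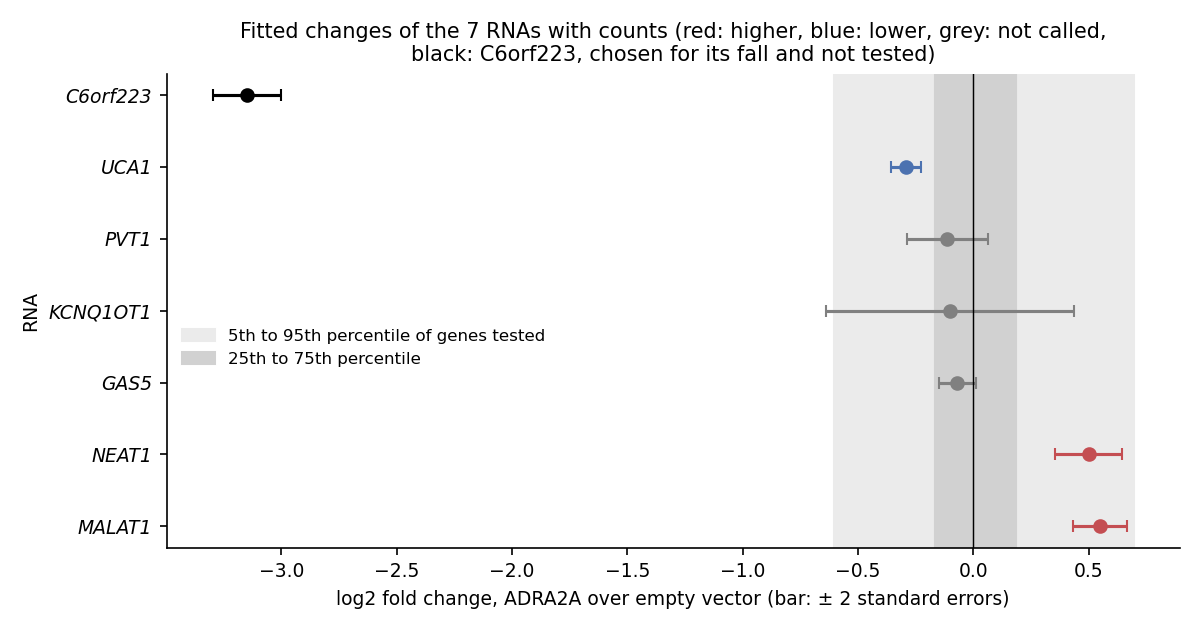
Fitted log2 fold change of the 7 RNAs with counts (horizontal axis), each with 2 standard errors, over grey bands that hold the 25th to 75th and the 5th to 95th percentile of all tested genes. C6orf223, chosen for its fall, is at -3.15 and outside the wide band, and the other 6 lie inside it.

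For each RNA with at least 10 CPM, genes most like it across the libraries were found by Pearson's r after each group mean was subtracted, over 8 libraries and 10158 genes. They were FBXO4 and SERPINA5 for C6orf223 (r 0.98 and 0.98), COA4 for UCA1 (0.97), TAB3 and DTX4 for MALAT1 (0.99 and 0.99), PRR15L and LY6E for NEAT1 (0.99 and 0.98), TES and ST5 for PVT1 (0.98 and 0.96) and SAMD4A and HIST1H2AC for GAS5 (0.97 and 0.96). These are the highest of many values over few libraries that share a normalisation. Without subtraction, CCND1 and C6orf15 were most like C6orf223 (0.997 and 0.997), which follows the difference between the groups.

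Other long non-coding RNAs studied in cancer were read in the same way. Of 32 tested, 5 were higher and 7 lower, and the median log2 change was -0.09, where SNHG1 and ZFAS1 also belong to the snoRNA hosts. Called in either direction were 20.5% of the tested long non-coding RNAs and 42.7% of all genes tested. DANCR, which has been linked to the repression of differentiation, fell from 26.9 ± 1.63 to 14.3 ± 1.63 CPM (log2 fold change -0.91, edgeR adjusted p = 2.9e-08). NKILA, an RNA that interacts with NF-kappaB, fell from 10.3 ± 1.17 to 5.03 ± 1.04 CPM (log2 fold change -1.02, edgeR adjusted p = 6.8e-06). HCP5, from the major histocompatibility region, rose from 19.2 ± 2.10 to 27.3 ± 1.01 CPM (log2 fold change 0.51, edgeR adjusted p = 2.0e-05). HAGLR, antisense to the HOXD cluster, rose from 0.262 ± 0.0649 to 1.59 ± 0.318 CPM (log2 fold change 2.56 ± 0.35, edgeR adjusted p = 7.2e-06).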

How the data were processed

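RNA from 8 CFPAC-1 samples was isolated with TRIzol and read on an Illumina NextSeq, per the labels. The authors deposited 1 table of RSEM estimated counts per gene and sample, and the submitters' processing notes name cutadapt, STAR, RSEM, DESeq2 and hg38. Use of strand, the annotation release and the RNA selection are not given in the sources used here. Each of the 8 columns matched a sample's title, and 0 were left over. After rounding the estimated counts to whole numbers, genes were filtered with filterByExpr, libraries were scaled by TMM, and the groups were compared with edgeR 4.0.16 (glmQLFit, glmQLFTest) in R 4.3.3, with Benjamini-Hochberg adjustment over all genes tested and a threshold of 0.05. The standard error is the absolute log2 fold change divided by the square root of F. The code was tested on simulated data. The members and gene lists were chosen with earlier results of these data known, so no list is independent evidence.

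Genes named were the listed RNAs, ADRA2A, the 3 genes with the smallest p of each list (4 for lists with over 20 tested), the nearest tested gene on each side, MYC, IGF2, KCNQ1, CDKN1C, NONO, SFPQ and the most similar genes. Some genes that this rule takes are not reported here. Others were chosen after their values were seen. Positions come from GENCODE 44, matched by Ensembl identifier for 99.4% of genes, and promoters from RefSeq. The alternatives were DESeq2 1.42.0, RLE and upper quartile factors, limma 3.58.1 voom, filters at 1 count in any library and at a mean of 50 counts, a fit with the replicate block, and the loss of each library in turn. Leaving out libraries for ratios and for the correlation of MALAT1 and NEAT1 was added after seeing the data.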

Additional observations from a re-analysis of the deposited data

Results flagged for a closer look

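In 4 of the 137 groups of 4 libraries checked, 1 library stood far from the other 3, which lay close together. Chance alone gives about 1 in 20. GAS5 was at 105 CPM in ADRA2A replicate 1 and at 99.5 to 100.2 CPM in the other 3. CASC19 was at 26.1 CPM in empty-vector replicate 3 and at 22.2 to 22.4 CPM in the others. H1F0 was at 375 CPM in empty-vector replicate 2 and at 333 to 338 CPM in the others. AL109615.3, antisense to C6orf223, was at 1.29 CPM in empty-vector replicate 1 and at 2.44 to 2.64 CPM in the others.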

How the results depend on the processing

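MALAT1, NEAT1 and UCA1 passed, and PVT1, KCNQ1OT1 and GAS5 did not, in every alternative in which they could be fitted. Leaving out each library gave 3 called of the listed RNAs each time, 5703 to 6042 genes called in all, 83 to 95 called over the 12 gene lists (96 with all libraries) and 64 to 75 called neighbours within 1 Mb (75 with all libraries). Neighbours called were 29 within 250 kb and 279 within 5 Mb. These are counts and not shares, and 42.7% of all genes tested were called, so no excess is read from them. No alternative scaling moved the median log2 fold change by over 0.1. KCNQ1OT1 reversed to 0.10 without empty-vector replicate 4 and to 0.01 without ADRA2A replicate 2. AP000769.1 reversed to 0.0033 without ADRA2A replicate 2, and MRPL23 to 0.048 without ADRA2A replicate 4. Over the fits that leave out a library, these 3 spanned -0.30 to 0.10, -0.47 to 0.0033 and -0.16 to 0.048 on the log2 scale, and none passed; the cause was not tested. Same-numbered samples deviated with correlations of -0.02, -0.04, 0.07 and -0.02, so no pairing by number was seen in the values. Whether the samples were paired in culture or preparation cannot be told from this. With the replicate block 6400 genes were called and 3 of the listed RNAs. KCNQ1OT1, CDKN1C and KCNQ1 rest on few counts, as do AC005336.1, CYP4F12 and HAGLR. KCNQ1, AC005336.1, CYP4F12 and HAGLR passed in all 14 alternatives in which they were fitted, and CDKN1C in 6. What depth and the spread between libraries each contribute was not tested.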
